A study of Homo sapiens with 4 samples.

Results

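The 10 nuclear genes described here encode 9 subunits of respiratory complex III (CYC1, UQCRFS1, UQCRC1, UQCRC2, UQCRB, UQCRQ, UQCRH, UQCR10 and UQCR11) and cytochrome c (CYCS). They were taken as a list of symbols from the 20037 protein-coding genes of a RefSeq gene table (GRCh38). No cut on signal was applied, but the list was chosen with earlier results of these data known. For each gene, every ERRα peak was collected whose summit, the position of highest signal, lay inside the gene or within 50 kb of it. The peaks come from chromatin immunoprecipitation and sequencing (ChIP-seq) with an antibody against the oestrogen-related receptor ERRα in the human cell line MDA-MB-231, which was established from a triple-negative breast cancer. The cells were grown in medium with 10% serum, with no other treatment or genotype named, and fixed with 1% formaldehyde. There were 2 ERRα libraries (replicates 1 and 2) and 2 input libraries of the same line without antibody. Peak lists hold no expression values, so the cell line could not be checked against marker genes. The design has 1 condition, so the values below are descriptions with no test, and an SD over n = 2 is itself imprecise.

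Complex III takes electrons from ubiquinol in the inner mitochondrial membrane, passes them to cytochrome c and moves protons across the membrane. Electrons leave through the iron-sulfur cluster of the Rieske protein (UQCRFS1) and the haem of cytochrome c1 (CYC1), while cytochrome b, the remaining catalytic subunit, is encoded in mitochondrial DNA and is not among the 10 genes. Cytochrome c then carries single electrons to complex IV, and when released into the cytosol it triggers apoptosis. ERRα is an orphan nuclear receptor known for binding near genes of oxidative phosphorylation, and cytochrome c is one of its textbook targets in other tissues.

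Replicate 1 gave 14072 peaks on the main chromosomes and replicate 2 gave 12659, with median fold enrichments over input of 7.07 and 7.25. Both lists were called against the same 2 inputs and so share a background. The authors' list of peaks matched between the replicates held 10059, and the 5070 of these with an irreproducible discovery rate (IDR, the expected share of matches that would not repeat) of at most 0.05 are called reproducible here. The strongest peak, at ESRRA, the gene of ERRα itself, reached 544 in replicate 1 and 543 in replicate 2.

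ERRα peaks lay at 5 of the 10 genes in reproducible form, at CYC1, UQCRFS1, UQCRC2, UQCR10 and UQCRC1, counted as a summit within 1 kb of either end of the gene. Of all 20037 protein-coding genes, 4.49% had such a summit. A further 3 genes, CYCS, UQCRB and UQCRQ, failed the IDR threshold but had matched summits at an end (4.36% of all genes), so that 8 of the 10 had a matched summit there (8.85% of all genes). UQCRH had a peak at its start in replicate 1 and not in replicate 2 (3.31% of all genes were called in that way in replicate 1 alone). UQCR11 had no peak of either replicate inside it or within 50 kb, as had 35.6% of all genes. In replicate 1's own list 9 of the 10 genes had a summit at an end (12.2% of all genes), and in that of replicate 2 there were 8 (11%). The RefSeq promoter table gives strand for 8 of the 10 genes, not for CYC1 and UQCRB. Within these 8, 4 had a reproducible summit within 1 kb of the start, against 4.51% of the 15843 protein-coding genes in that table, and these were the same 4 as with either end. All matched summits gave 6 of the 8 (9.05%).

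**Figure D1:**
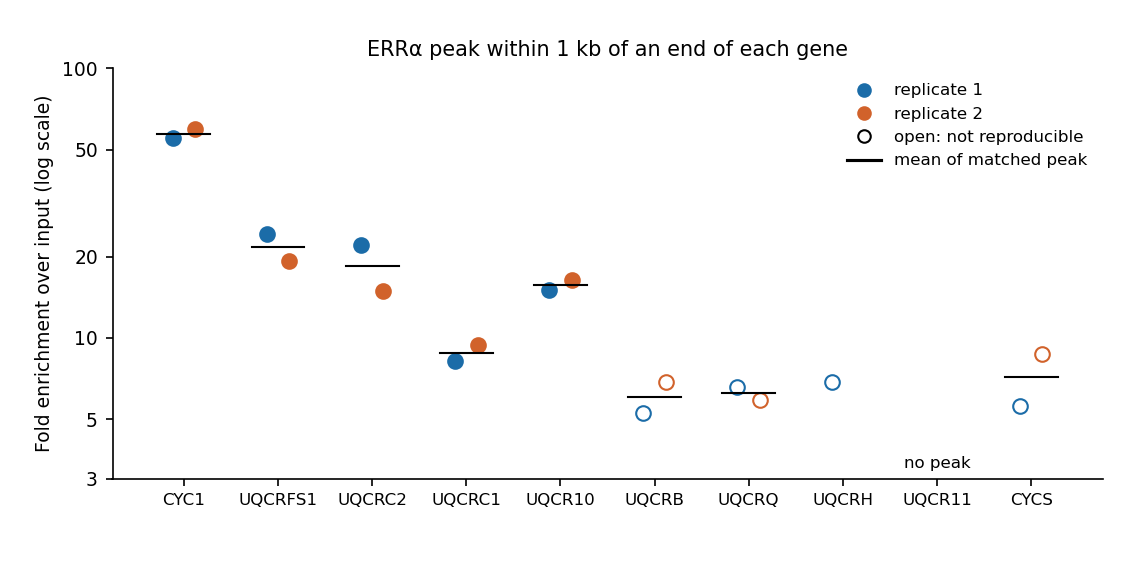
Fold enrichment over input (log scale) of the ERRα peak within 1 kb of an end of each gene, with a point per replicate and a line at the mean of the matched peak. Filled points are reproducible peaks, open points are not. CYC1 stands at 55.0 and 59.5, the 4 other reproducible genes lie between 8.19 and 24.3, and the open points lie between 5.26 and 8.74.

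The DNA before the start is shown for 5 genes that span these outcomes, 3 with a reproducible peak there (UQCRFS1, UQCRC2 and UQCR10), CYCS with a peak that failed IDR and UQCR11 with none. Each is the 250 bases upstream of the RefSeq start (GRCh38.p14), 5′ to 3′ on the strand of the gene, and capitals mark matches to the motifs given further on. They lie at chr19:29213152-29213401 (minus strand, UQCRFS1), chr16:21953111-21953360 (plus, UQCRC2), chr22:29767119-29767368 (plus, UQCR10), chr7:25125261-25125510 (minus, CYCS) and chr19:1605463-1605712 (minus, UQCR11).
UQCRFS1: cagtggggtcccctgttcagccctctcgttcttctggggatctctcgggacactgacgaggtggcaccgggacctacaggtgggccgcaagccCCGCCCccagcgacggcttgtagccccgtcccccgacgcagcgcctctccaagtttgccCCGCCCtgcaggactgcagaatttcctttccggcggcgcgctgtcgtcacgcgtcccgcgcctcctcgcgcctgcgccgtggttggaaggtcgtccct
UQCRC2: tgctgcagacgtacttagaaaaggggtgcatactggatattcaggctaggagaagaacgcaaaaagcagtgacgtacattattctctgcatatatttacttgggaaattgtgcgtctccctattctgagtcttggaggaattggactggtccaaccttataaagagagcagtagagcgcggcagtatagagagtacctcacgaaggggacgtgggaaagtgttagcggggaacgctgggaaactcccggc
UQCR10: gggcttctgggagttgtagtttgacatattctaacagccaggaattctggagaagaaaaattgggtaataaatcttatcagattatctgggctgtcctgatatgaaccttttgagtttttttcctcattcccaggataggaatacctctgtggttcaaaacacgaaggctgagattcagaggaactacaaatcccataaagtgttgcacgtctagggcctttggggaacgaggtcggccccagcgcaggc
CYCS: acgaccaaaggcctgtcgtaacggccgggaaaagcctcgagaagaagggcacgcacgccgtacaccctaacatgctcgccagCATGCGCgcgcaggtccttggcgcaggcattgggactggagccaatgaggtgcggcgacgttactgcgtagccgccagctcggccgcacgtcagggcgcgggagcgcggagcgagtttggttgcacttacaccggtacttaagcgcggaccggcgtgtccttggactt
UQCR11: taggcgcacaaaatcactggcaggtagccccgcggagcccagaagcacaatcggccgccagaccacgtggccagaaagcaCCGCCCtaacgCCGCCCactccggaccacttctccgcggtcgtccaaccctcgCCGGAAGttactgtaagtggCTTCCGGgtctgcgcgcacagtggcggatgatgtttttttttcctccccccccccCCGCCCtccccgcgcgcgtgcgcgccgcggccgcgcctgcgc
The matched peak, which spans the peaks of both replicates, covered 240 of these bases at UQCRFS1 and all 250 at UQCRC2, UQCR10 and CYCS. The peaks of replicates 1 and 2 alone covered 240 and 152 bases at UQCRFS1 and 185 and 250 at UQCRC2. They covered 50 and 250 at UQCR10 and 250 each at CYCS, and no peak of either replicate covered any at UQCR11.

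CYC1 encodes cytochrome c1, the haem protein that hands electrons to cytochrome c, and it had by far the strongest of these peaks. Its fold enrichment was 55.0 in replicate 1 and 59.5 in replicate 2 (mean 57.2 ± 3.23, SD, n = 2). The authors' −log10 q, a measure of how unlikely the signal is given the input, was 282 and 293. CYC1 ranked 43 of the 900 genes with a reproducible summit at an end, and the peak ranked 185 of the 5070 reproducible peaks. The peak spanned chromosome 8 from 144094791 to 144096164 (1374 bp) and its summit, at 144095286, lay 210 bp inside the gene from the lower-coordinate end (gene 144095076 to 144097525). The summits of the replicates were 11 bp apart, at 205 and 216 bp inside the gene. No other protein-coding gene had an end within 1 kb of it.

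The genes whose peaks were most like that of CYC1 were found by the distance between log2 folds over the 2 replicates, among all genes with a reproducible summit at an end. VCL, which encodes the adhesion protein vinculin, was closest, with 54.2 and 57.5 (distance 0.055). ISOC2 followed with 57.4 and 61.3 (0.075). CEND1 and SLC25A22, a mitochondrial glutamate carrier gene, share a summit and tied for the next place with 51.4 and 61.6 (0.11).

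UQCRFS1, the Rieske iron-sulfur protein and the other nuclear-encoded redox subunit, had folds of 24.3 in replicate 1 and 19.2 in replicate 2 (mean 21.7 ± 3.57, SD, n = 2). Its −log10 q was 92.4 and 54.1. This peak spanned chromosome 19 from 29212111 to 29213391 (1281 bp) and was the single peak of the 50 kb window in either replicate. Its summit was 472 bp downstream of the start (gene 29205320 to 29213151, minus strand), and the replicate summits were 123 bp apart, at 410 and 533 bp, farther than in 88.1% of all matched peaks. The CYC1 mean was 2.63 times that of UQCRFS1, and the lower CYC1 value exceeded the higher UQCRFS1 value.

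UQCRC2 and UQCRC1 encode the core proteins, the large subunits that face the matrix and resemble processing peptidases. At UQCRC2 the fold was 22.1 in replicate 1 and 14.9 in replicate 2 (mean 18.5 ± 5.08, SD, n = 2), with −log10 q of 63.6 and 32.8. The value in replicate 1 was 1.48 times that in replicate 2, a larger gap on the log scale than in 90.2% of matched peaks. The peak lay on chromosome 16 from 21953045 to 21954014, with its summit 208 bp downstream of the start (gene 21953361 to 21983660, plus strand). At UQCRC1 the fold was 8.19 and 9.42 (mean 8.81 ± 0.868, SD, n = 2), the weakest of the 5 reproducible genes and rank 805 of the 900 genes. Its −log10 q of 31.4 and 36.9 was nevertheless near that of UQCR10, whose fold was higher. The UQCRC1 peak lay on chromosome 3 from 48608771 to 48609777, with its summit 161 bp downstream of the start (gene 48599002 to 48609646, minus strand). It had an IDR of 0.024, the highest of the 5 reproducible genes, and it drops out at an IDR of 0.01.

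UQCR10, a small accessory subunit, had folds of 15.1 in replicate 1 and 16.4 in replicate 2 (mean 15.7 ± 0.916, SD, n = 2), with −log10 q of 36.6 and 39.6. The summit on chromosome 22 was 195 bp downstream of the start (peak 29767081 to 29768039, gene 29767369 to 29770413, plus strand), and the replicate summits were 2 bp apart. The end of ZMAT5, a zinc finger protein gene, was 557 bp from the same summit, so the peak cannot be given to UQCR10 alone. Replicate 1's peak covered 50 of the 250 upstream bases printed above and that of replicate 2 covered all 250, although their summits nearly coincided.

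CYCS had a weak peak whose replicates disagreed on position. Its fold was 5.58 in replicate 1 and 8.74 in replicate 2 (mean 7.16 ± 2.23, SD, n = 2), with −log10 q of 7.19 and 14.9 and an IDR of 0.202. The summit was 504 bp upstream of the CYCS start in replicate 1 and 29 bp upstream in replicate 2, so that the former was 8 bp from the end of SPMIP4 and the latter 483 bp from it. This gap of 475 bp was larger than in 99.1% of all matched peaks, whose median was 37 bp. The matched summit lay outside CYCS, 266 bp from it and 246 bp from the end of SPMIP4, so the peak cannot be given to CYCS alone. The matched peak, on chromosome 7 from 25124481 to 25125971, held the CYCS start (gene 25118656 to 25125260, minus strand). It was 1491 bp wide, the widest matched peak at an end of any of the 10 genes. This width joins replicate peaks of 1284 and 1039 bp with distant summits, and in replicate 2 the CYC1 peak was wider (1374 bp).

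UQCRB and UQCRQ, small subunits that pack against cytochrome b, had folds below the median of all peaks in each replicate's list (7.07 and 7.25). UQCRB had folds of 5.26 and 6.86 (mean 6.06 ± 1.13, SD, n = 2), with the summit on chromosome 8 at 96234992, 553 bp inside the gene from its upper-coordinate end (gene 96222947 to 96235545). UQCRQ had 6.58 and 5.87 (mean 6.23 ± 0.502, SD, n = 2), with the summit on chromosome 5 at 132867240, 598 bp downstream of the start (gene 132866642 to 132868847, plus strand) and 589 bp from an end of GDF9, an oocyte growth factor gene. Both had an IDR of 0.426, the highest value in the matched list, which they shared with many others (2649 matched peaks in all). In the replicate lists, the UQCRB summits were 37 bp apart and those of UQCRQ 20 bp apart. The median over all matched peaks was 37 bp, so these distances were ordinary for matched peaks.

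UQCRH, the hinge protein that contacts cytochrome c1, had a replicate 1 peak with a fold of 6.85 and −log10 q of 8.59, its summit 8 bp upstream of the start on chromosome 1 (gene 46303698 to 46316776, plus strand) and 74 bp from the end of LRRC41. Replicate 1 had a second, weaker summit 1113 bp inside UQCRH (4.95). Replicate 2 had no peak in the gene, and its one summit in the window, with a fold of 5.64, lay 31.4 kb past the upper-coordinate end inside NSUN4. UQCR11, the last of the small subunits (chromosome 19, 1597169 to 1605462), was 73.8 kb from the nearest summit of either replicate and 84.0 kb from the nearest reproducible one. A gene without a listed peak is one where the caller reported none, and read counts there were not used here, so signal under the calling threshold cannot be told from none.

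In order of mean fold, CYC1 stood apart from UQCRFS1 by 35.5, beyond the SD of each. UQCRFS1 and UQCRC2 differed by 3.25, less than the SD of either, and UQCRC2 and UQCR10 by 2.78, less than the SD of UQCRC2. UQCR10 was 6.91 above UQCRC1, beyond both SDs and with no overlap of replicate values. UQCRC1 and CYCS differed by 1.65, less than the SD of CYCS, and from CYCS down to UQCRB the neighbours overlapped. The 5 reproducible genes had a median of 18.5, beside 13.8 over all 900 genes with a reproducible summit at an end (quartiles 10.4 and 21.8), but all had to pass the same IDR to be counted. CYC1 lay above the upper quartile, UQCRFS1 just under it and UQCRC1 below the lower quartile.

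**Figure D2:**
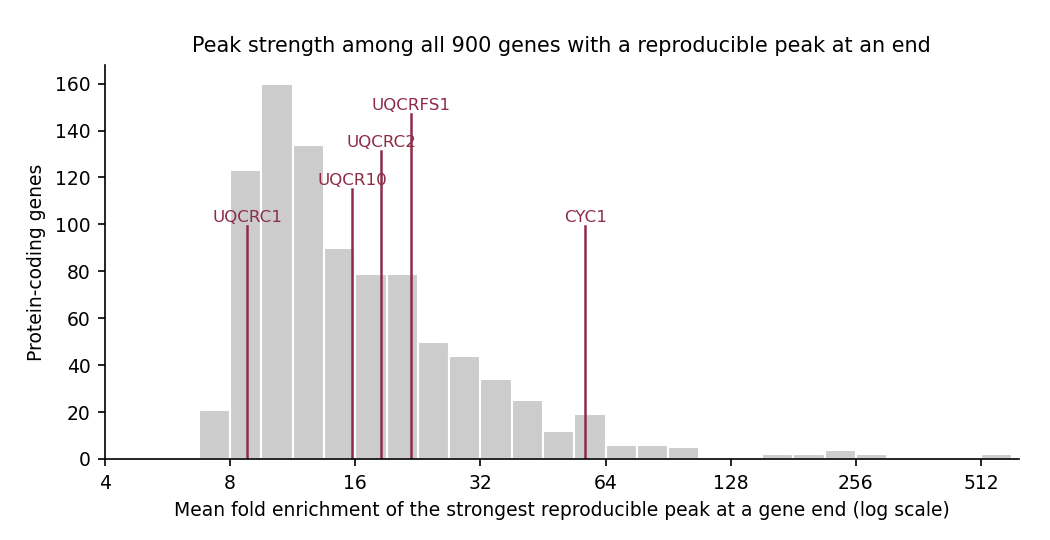
Number of protein-coding genes (vertical axis) by the mean fold enrichment of their strongest reproducible ERRα peak at an end (log scale), for all 900 such genes, with the 5 complex III genes marked by lines. CYC1 (57.2) lies in the upper tail, and the other 4 lie between 8.81 and 21.7, within the main body.

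Neither replicate had the higher fold at all of these genes. Of the 8 matched peaks at an end, 3 had the higher fold in replicate 1 (UQCRFS1, UQCRC2 and UQCRQ) and 5 in replicate 2. Over all matched peaks the median log2 ratio of replicate 1 to replicate 2 was 0.031, with quartiles of -0.18 and 0.25. UQCRC2, at 0.57, and CYCS, at -0.65, lay outside these quartiles, as did UQCRFS1 (0.34), UQCRB (-0.38) and UQCRC1 (-0.20).

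Most matched summits at an end lay inside the gene. Of the 8 matched peaks at an end, 7 had the summit inside the gene, between 161 bp (UQCRC1) and 598 bp (UQCRQ) from the end, with a median of 210 bp, and CYCS was the exception. Among the 6 of these 8 with a known start, 5 were downstream of it, where 49.2% of the 1433 genes with a matched summit within 1 kb of a start had their strongest one downstream. The 8 peaks were 882 to 1491 bp wide, all above the median of 774 bp for reproducible peaks, and reproducible peaks at gene ends had a median of 888.5 bp. The gene table holds no exons, so exon or intron was not assigned.

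**Figure D3:**
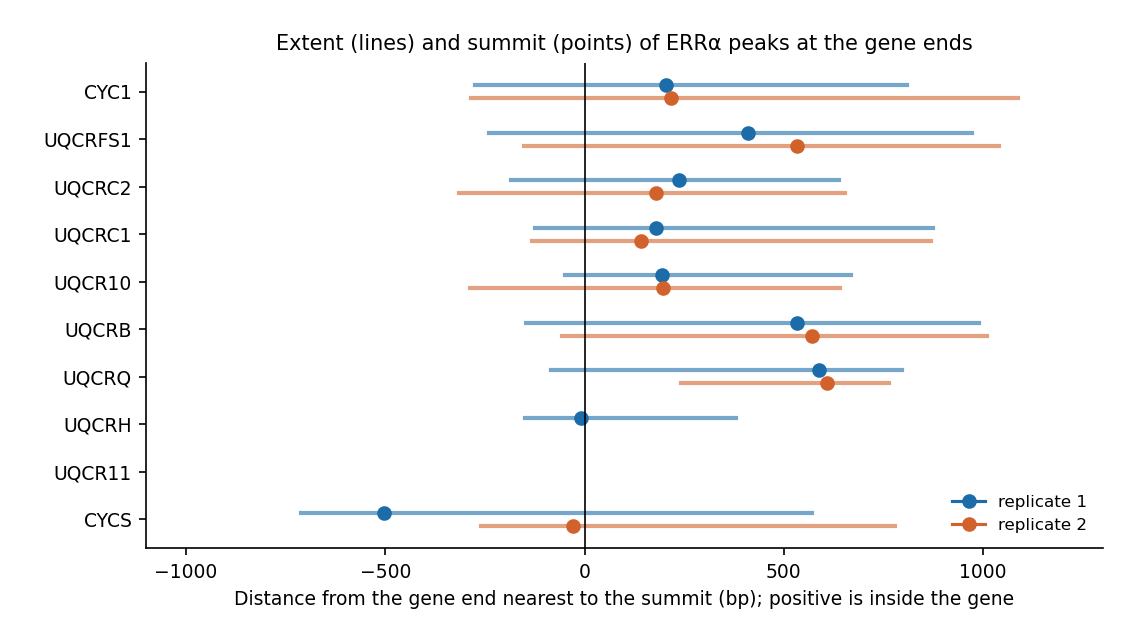
Extent (lines) and summit (points) of the replicate 1 and replicate 2 peaks within 1 kb of an end, by distance in bp from the gene end nearest to the summit, with positive values inside the gene. In 7 genes both summits lie inside the gene within 608 bp of its end, UQCRH has a replicate 1 peak alone, UQCR11 has none, and the 2 CYCS summits lie outside the gene at different positions.

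Strong ERRα peaks also lay in the neighbourhood of CYC1 and UQCR10. Within 50 kb of the 10 genes there were 10 reproducible summits, 5 at an end of the gene itself and 5 farther away. Of the 10 genes, 6 had at least 1 (33.7% of all genes), which adds UQCRB to the 5 above, and 8 had at least 1 matched summit (50.8%). CYC1 and UQCR10 each had 3, where the median over all genes was 0 and the 90th percentile 2. The windows are 100 kb plus the gene, and they hold other genes whose peaks these may be.

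The strongest peak in any of the windows was 40.4 kb below UQCR10 (towards lower coordinates), inside CABP7, a calcium-binding protein gene, and 4019 bp from an end of ZMAT5. It had folds of 117.2 in replicate 1 and 117.6 in replicate 2 (mean 117.4 ± 0.298, SD, n = 2) and spanned chromosome 22 from 29726413 to 29728003. This was rank 38 of the 5070 reproducible peaks, and the replicate summits were 1 bp apart. A weaker reproducible peak lay 16.1 kb below UQCR10 inside ZMAT5 (14.1 and 9.44, mean 11.8 ± 3.28, SD, n = 2).

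At CYC1, the second strong peak was 34.2 kb below the gene inside OPLAH, the gene of 5-oxoprolinase. Its folds were 46.1 and 47.4 (mean 46.8 ± 0.949, SD, n = 2), lower than at CYC1 in both replicates. Another reproducible peak, 3283 bp past the upper-coordinate end and inside SHARPIN, a gene of ubiquitin signalling, had 15.1 and 13.8 (mean 14.5 ± 0.928, SD, n = 2). Matched peaks that failed IDR lay 2746 bp below the gene (5.45 and 9.01, IDR 0.207) and at the far end of SHARPIN, 687 bp from an end of MAF1 (6.99 and 6.78, IDR 0.078). At UQCRB, the reproducible summit of the window was 29.2 kb below the gene on chromosome 8 at 96193786, outside protein-coding genes. Its folds were 13.9 and 12.5 (mean 13.2 ± 0.995, SD, n = 2), more than at UQCRB itself, and UQCRB was the nearest protein-coding gene.

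**Figure D4:**
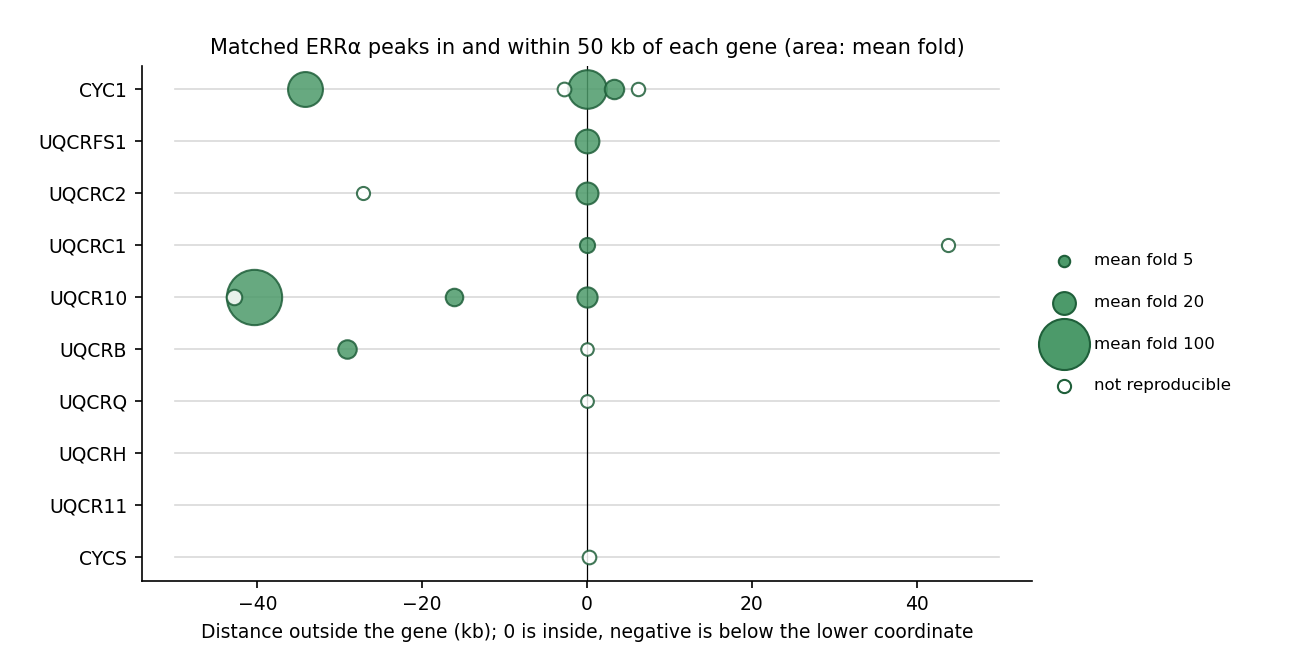
Matched ERRα peaks inside and within 50 kb of each gene, by distance in kb outside the gene (0 is inside), with the area of each circle proportional to the mean fold and open circles for peaks that are not reproducible. CYC1 and UQCR10 have 3 filled circles each, the largest (117.4) 40.4 kb below UQCR10, and UQCRH and UQCR11 have none of either kind.

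The promoter windows of 8 of the 10 genes, 250 bases before to 50 after the start, were searched on both strands for 9 short motifs. None of the 8 held the ERR response element TNAAGGTCA. It was in 0.671% of the 22199 protein-coding promoters in the table, and in 3% of the 867 protein-coding promoters with a reproducible summit within 1 kb. The shorter nuclear receptor half-site AGGTCA, contained in that element, was in none of the 8 either (11.9% of protein-coding promoters, 20% of the 867). The matched summits of UQCRC1, UQCR10, UQCRC2, UQCRFS1 and UQCRQ lay 161 to 598 bp downstream of the start, past the end of this window, that of CYCS lay 266 bp upstream, before it, and those of CYC1 and UQCRB were not covered. The bases under the matched summits were therefore not searched, while the replicate 2 summit of CYCS (29 bp upstream) and the replicate 1 summit of UQCRH (8 bp upstream) lay in the window. The strict form TCAAGGTCA, contained in the ERR element, was in 0.243% of protein-coding promoters. For the NRF1 palindrome this share was 1.5% and for TGACGTCA of CREB 2.26%, and none of the 8 held any of these.

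Matches to the other motifs occurred at genes with and without a peak. The ETS motif CCGGAAG was in 3 of the 8, namely UQCRH, UQCRQ and UQCR11, none of which had a reproducible peak. Over all protein-coding promoters its share was 12.8%, and it was higher, 22.1%, in the 867 with a reproducible summit within 1 kb. In UQCR11 it occurred on both strands, 117 and 97 bp before the start. The GC box GGGCGG was in UQCRC1, UQCRFS1 and UQCR11 (56.3% of protein-coding promoters, 72.4% of the 867), with 3 copies in UQCR11 and 2 in UQCRFS1. The shorter NRF1 motif GCGCATG, part of that palindrome, was in CYCS alone, 168 bp before the start (5.26% of protein-coding promoters, 6.46% of the 867). AAGATGGC of YY1 was in UQCRC1, 24 bp after the start (3.53% and 6.57%). UQCRC2 and UQCR10, with reproducible peaks, held none of the 9. Their upstream 250 bases were also poorer in G and C (48.4% and 45.2%) than those of UQCRFS1 (69.2%), UQCRC1 (67.2%), UQCR11 (68.4%), CYCS (64.4%) and UQCRQ (60.4%), with UQCRH at 49.2%, where the median of protein-coding promoters was 62%.

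Of the factors that build complex III, UQCC1 alone had a reproducible ERRα summit at an end. Of 9 assembly factors and HCCS, the enzyme that attaches haem to cytochrome c, 1 of 10 had a reproducible summit at an end (4.49% of all genes). UQCC1, a factor needed for cytochrome b, had folds of 13.9 and 11.5 (mean 12.7 ± 1.71, SD, n = 2) and the summit 16 bp inside the gene. UQCC5 (6.64 and 5.97, IDR 0.426) and UQCC6 (7.95 and 5.75, IDR 0.167, also 284 bp from the end of TDG) had matched peaks that failed IDR. LYRM7, a chaperone of the Rieske protein, and TTC19 had no matched peak at an end, but each had a replicate 1 peak there (5.38 and 4.30). The TTC19 summit lay 264 bp outside TTC19 and inside ZSWIM7, 144 bp from an end of ZSWIM7. BCS1L, which inserts the Rieske protein, and HCCS had no peak of either replicate within 50 kb, and UQCC2, UQCC3 and UQCC4 had none at an end.

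Each count of reproducible summits in this paragraph stands beside 4.49% of all protein-coding genes. Among the partners that feed complex III, 3 of 14 genes of coenzyme Q synthesis had a reproducible summit at an end. The highest were COQ9 (31.7 ± 0.385, SD, n = 2, shared with CIAPIN1) and PDSS1 (19.2 ± 0.836), which makes the isoprenoid tail. Of 6 other enzymes that reduce coenzyme Q (ETFDH, DHODH, GPD2, SQOR, PRODH and CHDH), 0 had a reproducible summit at an end. The lists of replicates 1 and 2 taken alone placed 0 and 1 of them at a summit (12.2% and 11% of all genes). Complex II had 2 of 4 subunits, SDHD (31.9 ± 0.454, shared with TIMM8B) and SDHA (12.9 ± 1.53, shared with CCDC127), and complex I had 13 of 37, the highest being NDUFS7 (58.4 ± 4.99) and NDUFB5 (26.7 ± 6.94, shared with MRPL47). Complex IV, which receives electrons from cytochrome c, had 7 of 11 subunits, led by COX4I1 (60.5 ± 4.77, shared with EMC8) and COX8A (53.1 ± 5.48). The COX4I1, NDUFS7 and CYC1 means differed by no more than the largest SD of the 3.

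Around the other role of cytochrome c, 2 of 10 genes of the mitochondrial path to apoptosis had a reproducible summit at an end (4.49% of all genes). These were BAK1 (47.4 in replicate 1 and 49.6 in replicate 2, mean 48.5 ± 1.54, SD, n = 2) and BAX (34.6 and 26.9, mean 30.8 ± 5.46), which encode the proteins that open the outer membrane for cytochrome c. Both folds were above those at CYCS itself in each replicate.

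**Figure D5:**
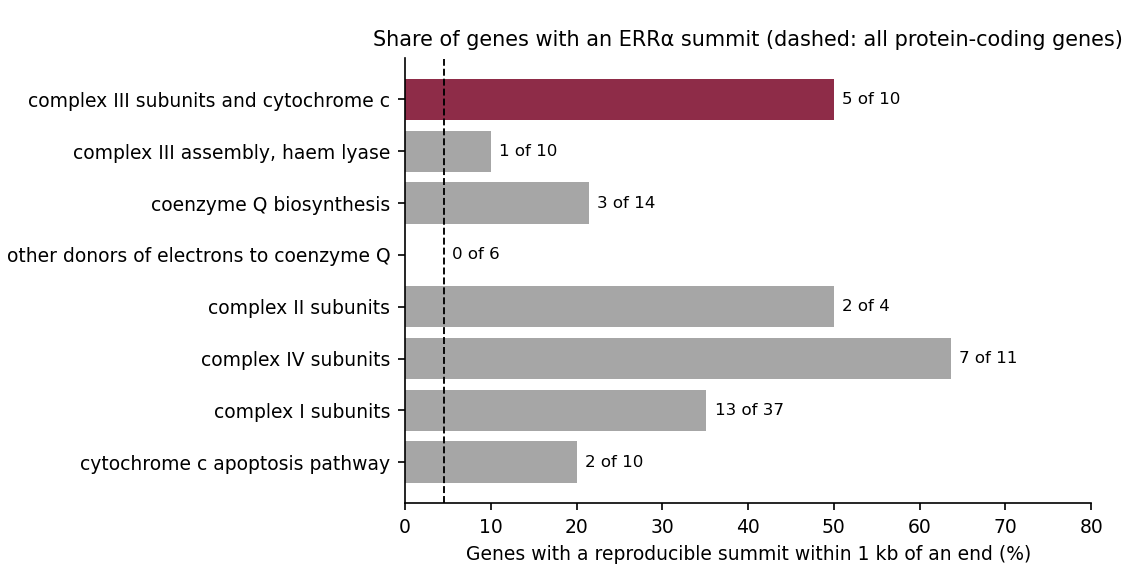
Share of genes (%) with a reproducible ERRα summit within 1 kb of an end, for complex III with cytochrome c and for 7 related gene lists, with counts beside the bars and a dashed line at 4.49%, the share of all protein-coding genes. The counts run from 0 of 6 for other donors of electrons to coenzyme Q to 7 of 11 for complex IV, with 5 of 10 for complex III with cytochrome c. Differences between the lists were not tested.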

How the data were processed

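A total of 4 libraries were described by the labels, 2 ERRα ChIP and 2 inputs, each ChIP from 2500000 cells and 5 µg of antibody, sequenced as 81 bp read pairs. Read numbers are printed ambiguously there, and were taken to mean 29000000 for each ERRα library and 10000000 for each input. Per the submitters' processing notes, the genome was hg38, and the tools were MACS2 2.2.6, Bowtie2 2.3.5, Trim Galore 0.6.5, deepTools, SAMtools and Picard. Their parameters were not given in the sources used here. Deposited lists give, per peak, a fold ratio over input, −log10 p and −log10 q, and a score that was 10 times the −log10 q. In the authors' matched list the deposited score rises as IDR falls, and 540 or more (IDR of at most 0.05) was required. Where a matched peak joined several peaks of a replicate (95 matched peaks, none at the 10 genes), the highest fold was used. Read counts were not used, so no interval covers depth.

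Distances were computed with Python 3.11.15 and pandas 2.3.3 from the RefSeq gene and promoter tables (GRCh38.p14, the build of hg38), and the assignment of summits was checked on simulated peaks. Peaks on other contigs (371, 358 and 272 in replicate 1, replicate 2 and the matched list) were left out. The design text traces the replicates to 2 cultures. The members and lists were chosen with earlier results of these data known. Named are all 10 genes, neighbours with an end within 1 kb of a summit used, all assembly factors, the 2 highest genes of each other list, the 3 genes most like CYC1 with ties, and ESRRA. Neighbouring genes that hold a window peak were named after their values were seen. Alternatives were other windows, IDR thresholds, single replicate lists, a −log10 q minimum of 5, any base of a peak and starts alone.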

Additional observations from a re-analysis of the deposited data

How the results depend on the processing

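The count of 5 genes with a reproducible summit at an end was also 5 with windows of 500 bp (2.82% of all genes) and 5 kb (9.28%), with a −log10 q of at least 5 and with any base of the peak in place of the summit, with the same 5 genes each time. It was 4 at an IDR of 0.01 (3.63%), without UQCRC1, and 4 with starts alone. With all matched peaks it was 8 (8.85% of all genes), and in a single replicate's list 8 to 9 (without replicate 1 and without replicate 2). The number with a summit within 50 kb, 6 (33.7% of all genes), was 5 at an IDR of 0.01 (27.9%), 8 with all matched peaks (50.8%) and 9 in each single replicate's list (56.9% in replicate 2 and 60.0% in replicate 1). The 4 genes with a summit at the start (4.51% of all genes in the promoter table) became 6 to 7 in single replicate lists. These lists, an alternative chosen after seeing the data, called 11.2% of all those genes in replicate 2 and 12.7% in replicate 1. With all matched peaks (8.85% of all genes) the counts were 3 of 10 for assembly factors with HCCS and 6 of 14 for coenzyme Q synthesis. Complex I had 25 of 37, complex II 4 of 4 and complex IV 9 of 11. The apoptosis genes had 3 of 10 and the other donors to coenzyme Q 0 of 6. At an IDR of 0.01 (3.63% of all genes) complex I fell from 13 to 9 of 37, and the counts of the other related lists did not change. In single replicate lists the counts were 3 to 5 for assembly factors, 7 to 8 for coenzyme Q synthesis and 0 to 1 for other donors to coenzyme Q. They were 4 to 4 for complex II, 9 to 9 for complex IV, 26 to 30 for complex I and 3 to 4 for the apoptosis genes. Single replicate lists hold weaker peaks for all genes (11% and 12.2%), so these are looser counts. No paired analysis was possible because each list was called against both inputs together and no value per input was used here. Depth per peak is unknown.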
